A study of Homo sapiens with 58 samples.

Results

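HuR bound near G3BP1 was compared with HuR bound in the nucleus of unstressed Huh-7.5 cells, using 8 of the 58 libraries of a HuR CLIP-seq series. The 8 are the streptavidin-enriched mock libraries 3 to 6 of the line labelled APEX-G3BP1 and 1 to 4 of the line labelled APEX-NLS, chosen by line, capture step, treatment and library set. G3BP libraries 3 and 4 and NLS libraries 1 and 2 carry the set prefix JL0388, and G3BP 5 and 6 and NLS 3 and 4 the prefix JL1024, so each set holds 2 libraries of each line. Where the results refer to them, the mock input libraries of both lines, the APEX-NES (cytoplasmic) enriched mock libraries, 2 further G3BP libraries of set JL0361 and the nuclear and cytoplasmic fraction libraries of set JL0380 are given for reference.

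HuR, encoded by ELAVL1, is an RNA-binding protein that prefers U-rich and AU-rich stretches. It is mostly nuclear, shuttles to the cytoplasm, binds introns of unspliced transcripts and the 3'UTR of mature mRNAs, and is best known for stabilising the latter. G3BP1 is a cytoplasmic RNA-binding protein that builds stress granules during stress and is spread through the cytoplasm otherwise, whereas a nuclear localisation signal (NLS) carries its cargo into the nucleus.

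Huh-7.5 is a hepatocellular carcinoma line, and both lines express APEX, a peroxidase that attaches biotin to nearby proteins. All 8 libraries come from cells given 0.5 mM biotin phenol for 30 min and 1 mM hydrogen peroxide for 1 min, with no arsenite. Cells were then crosslinked with UV light of 254 nm, and RNA was recovered through a HuR antibody (3A2) and streptavidin capture. Input libraries had the HuR immunoprecipitation without that capture, and fraction libraries came from WT cells without an APEX reaction. The labels do not state the promoter of the APEX fusions, whether a line is 1 clone, which of the RNase I dilutions each library had, or whether replicates were separate cultures. If they were not, the p-values below measure only the spread between libraries. A tag count in such bulk samples also cannot tell fewer labelled cells from less bound RNA per cell.

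Depth differed widely. The G3BP libraries 3 to 6 held 1831, 679, 30355 and 86419 tags in peaks, and the NLS libraries 1 to 4 held 33057, 20609, 34803 and 28325. Values are in CPM, the tags per 1000000 of a library's total. A single tag was worth 67.8 and 214.5 CPM in the shallow G3BP libraries 3 and 4, against 1.06 to 6.83 CPM in the other 6. A 0 in G3BP 3 or 4 therefore allows up to 203 or 643.5 CPM (3 tags), and no order within JL0388 can be read from one. NLS libraries 1 and 2 agree within sampling noise (chi-square per degree of freedom 1.01 over 764 genes, against 2.08 for NLS 3 and 4 and 2.77 for G3BP 5 and 6). They were counted as 1 sample in every mean ± SD, so that n is 3 for NLS and 4 for G3BP. They may be 1 library deposited under 2 names. The tests below keep both, and with them counted once edgeR called 239 genes in place of 324. The sets also stood apart: the 100 peaks with the most tags took 0.847% and 1.20% of the tags of NLS 1 and 2 but 22.5% and 18.7% of those of NLS 3 and 4, with 2.24% to 8.29% in the G3BP libraries. Of 14 hepatocyte markers 10 had a tag, led by AFP with 248, whereas APOA1, APOA2, APOC3 and TTR had none.

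The 3'UTR share of HuR tags was higher near G3BP1 in every library. Of the tags in peaks, 35.9%, 29.9%, 24.2% and 22.6% lay in 3'UTR peaks in G3BP 3 to 6, and 10.6%, 10.3%, 8.35% and 10.6% did in NLS 1 to 4. The lowest G3BP library was above the highest NLS library. The means were 28.1% ± 6.03 (SD, n = 4) and 9.79% ± 1.25 (SD, n = 3), and the difference over all libraries was 18.2 percentage points. A two-sided exact permutation test gave p = 0.0286, the smallest that 4 libraries against 4 allow, and 0.0952 after Benjamini-Hochberg adjustment over 10 annotation classes. The difference was 22.5 points within JL0388 and 13.9 within JL1024, with an exact p of 0.0556 when libraries were exchanged only within sets, again the smallest possible. Without the 100 leading peaks it was 16.8 points.

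The mock inputs differed much less. The 3'UTR share was 15.5% in the G3BP input and 17.1% in the NLS input of JL0388, and 14.8% and 11.6% in those of JL1024. Enriched and input shares differed in opposite directions in the lines: G3BP enriched libraries exceeded their own input by 17.4 points in JL0388 and 8.62 in JL1024, while NLS enriched libraries fell by 6.71 and 2.15 points from theirs. The difference of these differences was 24.1 and 10.8 points, with 1 input library per line and set, and the G3BP input of JL1024 held only 1353 tags in peaks. For reference, the nuclear fractions had 12.0%, 12.1% and 11.1% and the cytoplasmic fractions 37.1%, 45.3% and 44.6% of their tags in 3'UTRs. The NES enriched libraries had 34.7% and 36.7% in JL0388 but 8.94% and 16.1% in JL1024, and the other 2 G3BP mock libraries, of set JL0361, had 23.5% and 30.9%.

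**Figure D1:**
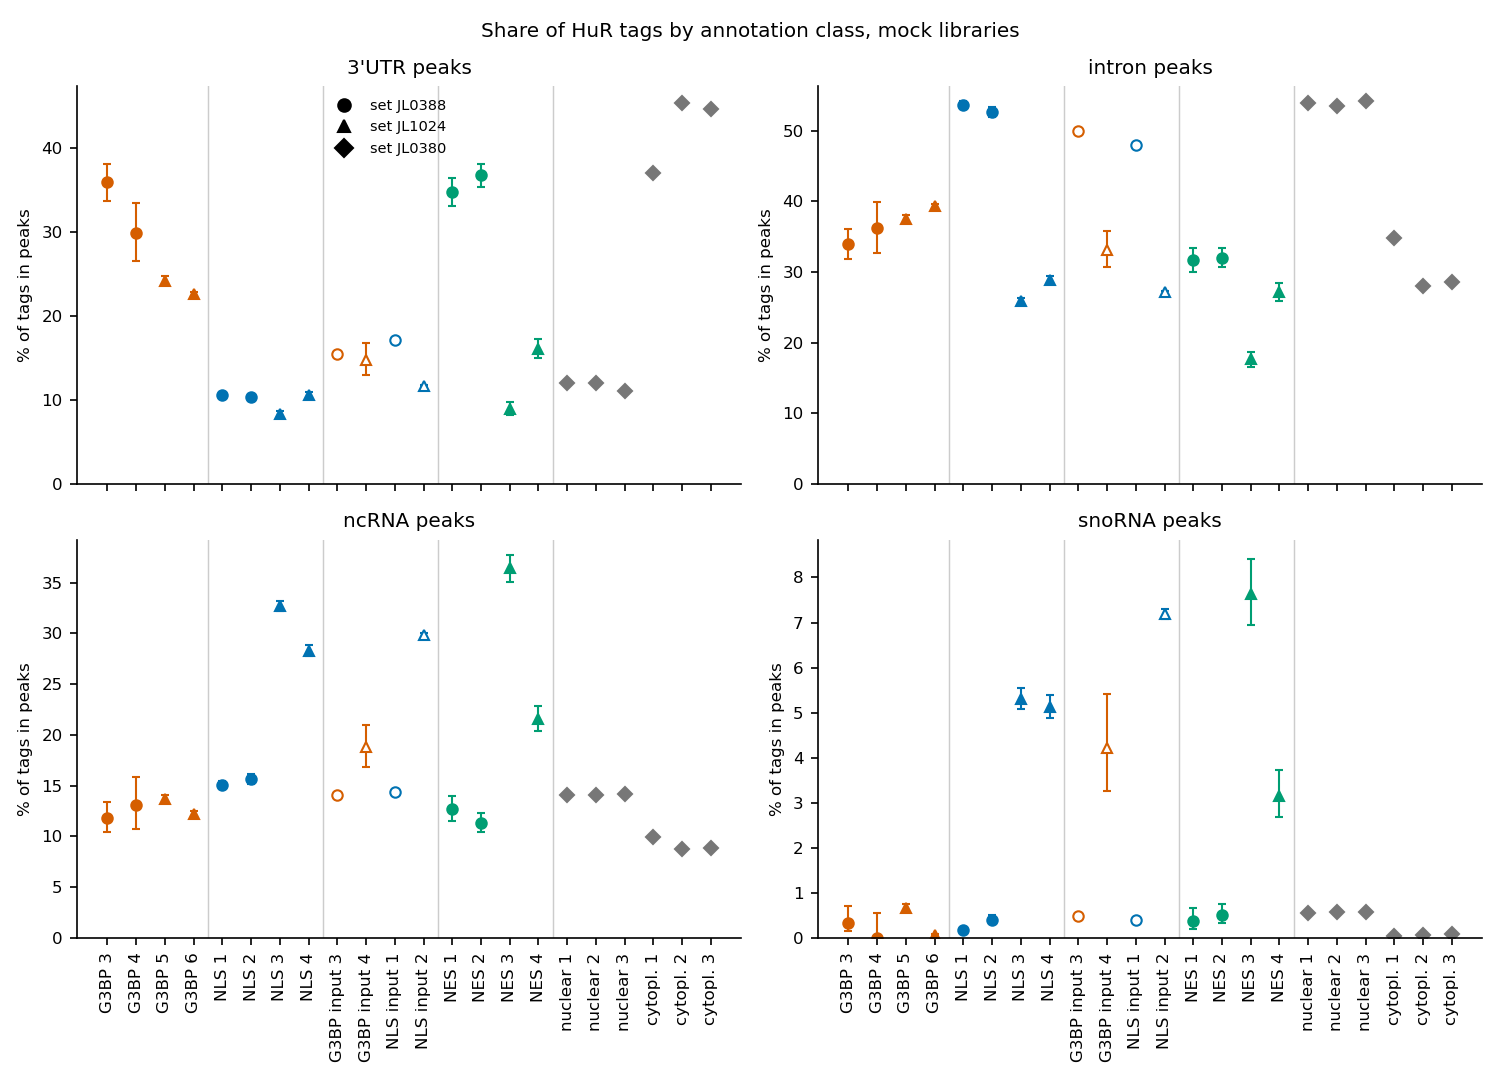
Percentage of tags in peaks (y axis) that fell in 4 annotation classes, per library, for the enriched, input and fraction mock libraries, with 95% Wilson intervals as error bars. The 3'UTR share of the 4 G3BP enriched libraries (22.6% to 35.9%) lies above that of the 4 NLS libraries (8.35% to 10.6%), while the intron share is lower in G3BP than in NLS in JL0388 and higher in JL1024.

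Non-coding RNA peaks showed the opposite order. Their share was 11.9%, 13.1%, 13.7% and 12.3% in G3BP 3 to 6 and 15.1%, 15.6%, 32.7% and 28.3% in NLS 1 to 4. The groups did not overlap, with means of 12.7% ± 0.83 (SD, n = 4) and 25.4% ± 9.00 (SD, n = 3). The exact permutation test of the difference, -10.2 points, gave p = 0.0286, or 0.0952 adjusted over the classes. Without the 100 leading peaks it was -6.70 points. Nearly all of it lay in JL1024, at -17.5 points against -2.87 in JL0388. In JL1024 the NLS input was at 29.8% and the G3BP input at 18.8%, and in JL0388 they were at 14.4% and 14.1%, so the share without capture moved with the set and line as well. Its part in the result was not tested.

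Intron and snoRNA shares depended on the set. The intron share was 33.9%, 36.2%, 37.5% and 39.3% in G3BP 3 to 6, a narrow range, and 53.6%, 52.7%, 25.8% and 28.9% in NLS 1 to 4. G3BP was thus 18.1 points below NLS in JL0388 and 11.0 points above it in JL1024, and the pooled difference of -3.53 points had an exact permutation p of 0.629. The inputs without capture had 50.0% (G3BP) and 48.0% (NLS) in JL0388, and 33.2% and 27.1% in JL1024. Peaks of snoRNA class took 0.261% ± 0.301 (SD, n = 4) of tags in G3BP and 3.57% ± 2.85 (SD, n = 3) in NLS (exact permutation p = 0.2). That difference was -0.125 points in JL0388 and -4.86 in JL1024, and without the 100 leading peaks it was -1.29 overall. The inputs had 0.486% (G3BP) and 0.390% (NLS) in JL0388 and 4.21% and 7.19% in JL1024, so the NLS enriched mean of JL1024, 5.22%, was below its input. G3BP 4, with no such tag, allows a share of up to 0.442%. Peaks within 10K downstream of genes had 1.59% ± 0.162 (SD, n = 4) in G3BP and 1.02% ± 0.123 (SD, n = 3) in NLS, that is 0.538 points more, with the same p and adjusted p in the exact permutation test as the non-coding RNA share.

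Within genes, 3'UTR and intron tags were separated in 671 genes tested for both. Pooled over these genes, 3'UTR peaks held 63.4%, 50.6%, 48.1% and 45.5% of the 3'UTR and intron tags in G3BP 3 to 6 and 22.1%, 22.8%, 32.7% and 34.1% in NLS 1 to 4. The groups did not overlap, and the difference of 24.0 points (exact permutation p = 0.0286) was 34.6 in JL0388 and 13.4 in JL1024. The inputs lay between 29.1% and 37.0%, the nuclear fractions between 20.8% and 22.4%, and the cytoplasmic fractions between 57.7% and 67.9%. Gene by gene, the median G3BP minus NLS difference by edgeR was 1.50 (log2) for the 3'UTR and 0.75 for the intron, and the 3'UTR value was above the intron value in 457 genes (68.1%). In JL1024 alone it was so in 393 of 660 genes (59.5%), with a median difference of 0.50. The 3'UTR was called higher in G3BP in 86 of the 671 genes and the intron in 6, with no gene called for both. These shares are near those over all tested regions, 14.3% of 3'UTR and 1.12% of intron regions.

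**Figure D2:**
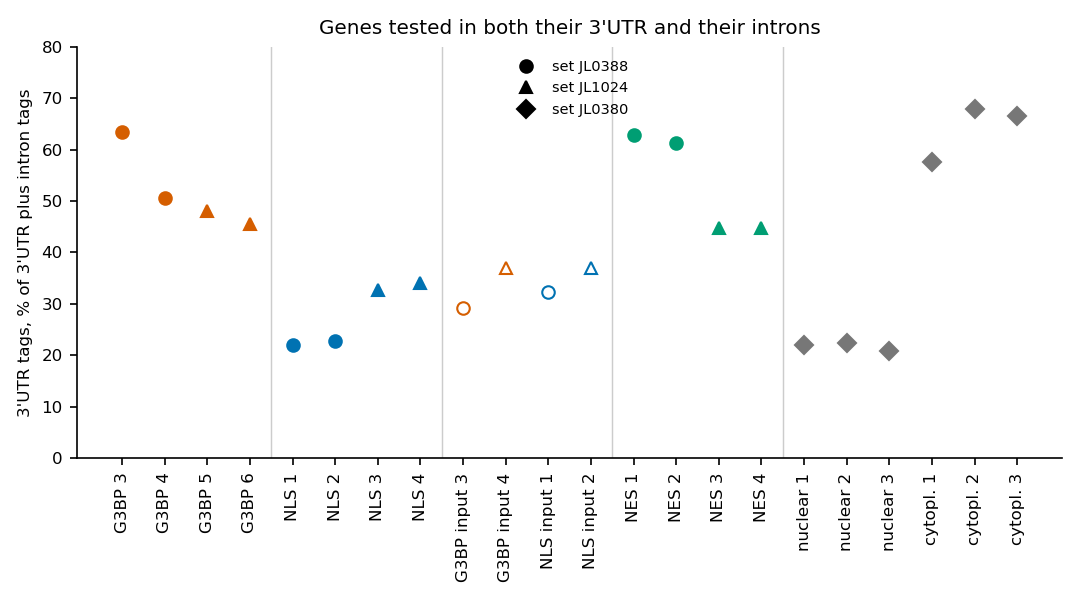
Percentage of 3'UTR and intron tags that lay in 3'UTR peaks (y axis) over 671 genes tested for both regions, one point per mock library. The G3BP enriched libraries (45.5% to 63.4%) lie above the NLS enriched libraries (22.1% to 34.1%), and the fractions show the nuclear and cytoplasmic levels for the same genes.

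Gene sums were tested next. A gene with a tag in at least 4 of the 8 libraries was tested with limma on log2(CPM + 2.28), with the library set as covariate. limma called 3 of 4303 genes after Benjamini-Hochberg adjustment at 0.05 (0.0697%), all higher in G3BP: ACTB, CTNNB1 and SPTBN1. An unadjusted p under 0.05 was reached by 187. edgeR's quasi-likelihood test on the recovered whole tags, which weights libraries by depth, called 324 genes (7.53%), 237 genes higher in G3BP (5.51%) and 87 higher in NLS (2.02%). The scale matters for direction, since the median gene was at 0.85 (log2, G3BP minus NLS) in edgeR with library totals, 0.47 with tags in peaks as library size, -0.21 with TMM factors and -0.63 in limma. Scaled to tags in peaks, edgeR called 146 genes higher in G3BP (3.39%) and 120 higher in NLS (2.79%). With TMM, edgeR called 5 genes higher in G3BP (0.116%) and 99 higher in NLS (2.3%), and all 324 genes called with library totals kept their sign. In all 3 edgeR scalings 5 genes were called higher in G3BP and 86 higher in NLS. The 5 include GRPEL2 and the 86 include SNORD52 and GNL3, which had tags in 1 line only and entered the tests through it. In JL1024 alone, where no library was shallow, edgeR called 320 genes higher in G3BP (4.93%) and 106 higher in NLS (1.63%) of 6487. Of these, 248 were called with the same sign over both sets.

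The genes named first were required not to overlap between the lines within either set, as held for 80 genes higher in G3BP and 122 higher in NLS of all 4303, so their separation restates the choice and is no finding. On the NLS side the rule counted zeros in G3BP 3 and 4 as lower, which their depth does not show.

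ACTB, the gene of cytoplasmic beta-actin, had the largest difference among the genes called by limma, all of them higher near G3BP1. It had 542, 214.5, 634 and 541 CPM in G3BP 3 to 6 and 49.3, 6.83, 117 and 155 CPM in NLS 1 to 4. G3BP 4 rested on 1 tag. limma gave a log2 difference of 3.04 ± 0.59 (SE, adjusted p = 0.00118) and edgeR 2.56 (adjusted p = 0.00046). The means were 483 ± 184 (SD, n = 4) and 100 ± 65.2 CPM (SD, n = 3), and the ratio within JL1024 was 4.32. All ACTB tags lay in 3'UTR peaks. In the inputs ACTB was not higher in the G3BP line, at 119 and 89.0 CPM against 133 and 271 in the NLS line. How tags shared with near-identical actin copies were assigned is not stated.

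CTNNB1 encodes beta-catenin, the adhesion and Wnt signalling protein. It had 542, 858, 239 and 198 CPM in G3BP 3 to 6 and 128, 68.3, 56.7 and 35.6 CPM in NLS 1 to 4. limma gave 2.53 ± 0.58 (SE, log2, adjusted p = 0.0279) and edgeR 2.39 (adjusted p = 0.00025), and 82.0% of its tags were in the 3'UTR. SPTBN1, the gene of a spectrin of the membrane skeleton, had 407, 1073, 305 and 261 CPM against 113, 150, 68.1 and 107 CPM (limma 2.01 ± 0.47 SE, adjusted p = 0.0304; edgeR 1.88, adjusted p = 0.00749). Its 3'UTR and intron parted: edgeR gave the 3'UTR peaks 2.54 (log2, adjusted p = 0.000316) and the intron peaks -0.33 (adjusted p = 0.791). With TMM factors none of the 3 genes passed, with adjusted p of 0.469 for ACTB, 0.663 for CTNNB1 and 0.887 for SPTBN1, whose log2 difference was then 0.62. limma also called none of the 3 without G3BP 5, with tags in peaks as library total, with median centring, without the set covariate or in JL1024 alone, where edgeR with library totals called each of them.

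Further genes of the naming rule were not called by limma, and all but EPHA2 (adjusted p = 0.093) were called by edgeR. SCD, the desaturase that makes monounsaturated fatty acids, had 339, 643.5, 188.5 and 107 CPM in G3BP 3 to 6 and 73.9, 68.3, 15.1 and 35.6 CPM in NLS 1 to 4 (limma 2.58, adjusted p = 0.536; edgeR 2.54, adjusted p = 0.000131), with 99.5% of tags in the 3'UTR. HNRNPU, a nuclear matrix protein gene of the HNRNP family, had 136, 643.5, 98.7 and 136 CPM against 69.0, 61.5, 24.6 and 31.4 (edgeR 2.07, adjusted p = 0.00338). Neither call held with TMM factors (log2 1.28, adjusted p = 0.557 for SCD; 0.85 and 0.82 for HNRNPU). DDX3X, the gene of an RNA helicase found in stress granules, had 136, 214.5, 35.9 and 27.5 CPM against 14.8, 0, 15.1 and 0 (edgeR 2.49, adjusted p = 0.00962) on 52 tags in all. GRPEL2, BTBD1, EPHA2 and POMK complete the 10, with 5 to 22 tags each over the 8 libraries, too few for a stated level. GRPEL2 had a tag in the 4 G3BP libraries alone and entered the tests only through them, so its call is no result. HNRNPH1, a splicing regulator gene among the most tagged of its list, had 67.8, 214.5, 470 and 576 CPM against 123, 116, 102 and 136. It was 1.66 higher in G3BP by edgeR (log2, adjusted p = 0.0475), with G3BP 3 below every NLS library. The call was lost with NLS 1 and 2 counted once (adjusted p = 0.0994) and with tags in peaks as library size (0.0704).

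**Figure D3:**
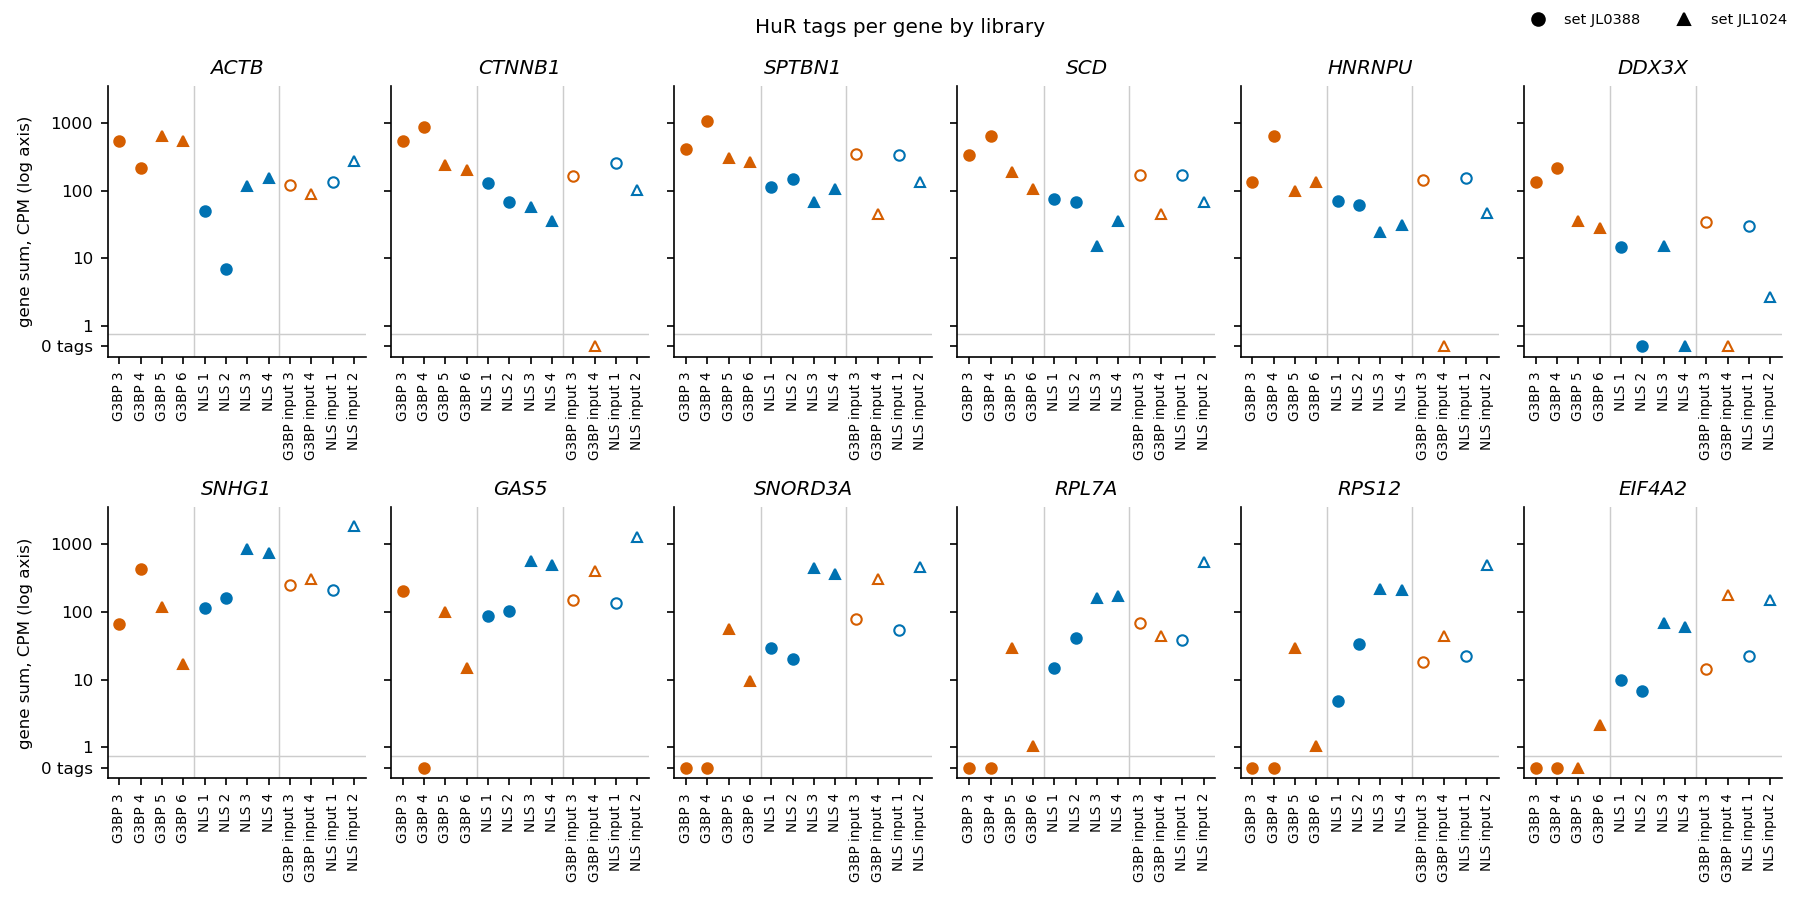
Summed peak signal in CPM (log y axis, with libraries without a tag on a separate row) of 6 genes higher in G3BP and 6 higher in NLS by edgeR, one point per library, with inputs as open symbols. ACTB, CTNNB1, SPTBN1 and SCD are separated between the lines in each set, as the naming rule required, whereas SNHG1, GAS5 and SNORD3A stand high in NLS 3 and 4 and in the NLS input of JL1024.

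Among the genes with more tags in the NLS libraries, small nucleolar RNAs and the genes that hold them stood first. SNORD3A, a copy of the U3 snoRNA of ribosomal RNA processing, had 0, 0, 56.9 and 9.53 CPM in G3BP 3 to 6 and 29.6, 20.5, 450 and 371 CPM in NLS 1 to 4 (edgeR -3.84). limma did not call it (adjusted p = 0.758). NLS 3 and 4 were far above the other 6 libraries compared, but the NLS input of JL1024 (468 CPM) and the first NES library of that set (490 CPM) were as high, with 161 CPM in its other NES library. With zeros in G3BP 3 and 4, JL0388 could not show a difference of this size. Its 4 near-identical copies (SNORD3A, SNORD3B-1, SNORD3B-2, SNORD3C) gave 230 and 30.7 CPM in G3BP 5 and 6 and 1734 and 1430 CPM in NLS 3 and 4, and all 4 were called by edgeR. How tags were divided among such copies is not stated. The summed inputs of JL1024 stood at 845 CPM (G3BP) and 1745 CPM (NLS), and those of JL0388 at 256 and 226.

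RPL7A, RPS12 and EIF4A2 code for 2 ribosomal proteins and a translation initiation helicase, and each also hosts snoRNAs in its introns. Their tags lay almost wholly in peaks of snoRNA class. RPL7A had 0, 0, 29.9 and 1.06 CPM in G3BP 3 to 6 and 14.8, 41.0, 163 and 174 CPM in NLS 1 to 4 (edgeR -3.91), and all its tags lay in snoRNA-class peaks. RPS12 had 0, 0, 29.9 and 1.06 CPM against 4.93, 34.2, 216 and 209 (edgeR -4.24), also all in snoRNA-class peaks. EIF4A2 had 0, 0, 0 and 2.12 CPM against 9.86, 6.83, 69.98 and 60.7 (edgeR -5.11), with 94.4% of tags in that class. In each of the 3 genes NLS 3 and 4 were the highest of the 8 libraries and G3BP 3 and 4 had no tag. The NLS input of JL1024 was higher still, at 553 CPM for RPL7A, 499.5 for RPS12 and 149 for EIF4A2, and the G3BP input of that set had 44.5, 44.5 and 178 CPM, or 1, 1 and 4 tags. The nuclear fractions had 128 to 154.5, 191 to 229 and 75.8 to 92.7 CPM. The others named on the NLS side were CROCC (0, 0, 8.98 and 4.24 CPM against 59.1, 123, 47.3 and 46.1; edgeR -3.02, adjusted p = 0.00106), SNORD52, RNU1-28P and GNL3. CROCC, a ciliary rootlet gene, was as high in the NLS libraries of JL0388 as in those of JL1024, and 95.2% of its tags were in non-coding RNA peaks. SNORD52 and GNL3 had no tag in any G3BP library and 28 and 16 tags in the NLS libraries. Both entered the tests only through the NLS libraries, so their difference was fixed by the filter and is no result.

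Most long non-coding snoRNA hosts were also lower near G3BP1 by edgeR. SNHG1 had 67.8, 429, 120 and 17.0 CPM in G3BP 3 to 6 and 113, 164, 857 and 743 CPM in NLS 1 to 4 (edgeR -3.17, adjusted p = 0.000544). GAS5 had 203, 0, 102 and 14.8 CPM against 88.7, 103, 577 and 501 (edgeR -2.85, adjusted p = 0.00115). In both genes the lines overlapped in JL0388 and parted in JL1024. The NLS input of JL1024 was higher than the enriched libraries, at 1870 CPM for SNHG1 and 1274 CPM for GAS5, against 311 and 400 CPM in the G3BP input. By edgeR 6 of 8 tested snoRNA hosts were higher in NLS, against 2.02% of all tested genes, and none in G3BP (GAS5, SNHG1, SNHG12, SNHG5, SNHG6 and ZFAS1; median -3.20, against 0.85 over all genes). SNHG29 (-0.31, adjusted p = 0.828) and SNHG16 (-1.88, adjusted p = 0.0771) were not called. SNHG6 had 17.9 and 7.41 CPM in G3BP 5 and 6 and 223 and 136 CPM in NLS 3 and 4, with no tag in JL0388.

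MALAT1, the abundant nuclear-speckle lncRNA, did not separate the lines. It had 407, 214.5, 925 and 1045 CPM in G3BP 3 to 6 and 1306, 1155, 479 and 473 CPM in NLS 1 to 4. The NLS libraries were higher in JL0388 and the G3BP libraries in JL1024, and the means were 648 ± 400 (SD, n = 4) and 727 ± 436 CPM (SD, n = 3; edgeR 0.07, adjusted p = 0.957). NEAT1, the scaffold of paraspeckles, had 67.8, 0, 41.9 and 33.9 CPM against 158, 205, 32.2 and 25.1, and was not called. No nuclear lncRNA passed among 9 tested (median 0.40), and none of 3 cytoplasmic lncRNAs did (median 1.35). ELAVL1 itself had 16 tags over the 8 libraries. G3BP1, the gene fused to APEX in one line, had 0, 0, 47.9 and 32.8 CPM against 34.5, 13.7, 7.57 and 12.6, and was not called.

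The gene lists were then counted by role. Their counts stand beside 5.51% of all tested genes called higher in G3BP and 2.02% higher in NLS. Among 13 tested AU-rich and reported HuR target genes, edgeR called 5 higher in G3BP and none in NLS (ACTB, ATF3, CCND1, CTNNB1 and ZFP36L1; median 1.72), and limma called 2 of them. ATF3, a stress transcription factor gene, had 67.8, 0, 173.5 and 197 CPM in G3BP 3 to 6 and 34.5, 27.3, 26.5 and 46.1 CPM in NLS 1 to 4 (edgeR 2.14, adjusted p = 0.00426). All its tags lay in peaks of intron class. CCND1, the gene of cyclin D1, had 0, 0, 47.9 and 24.4 CPM against 14.8, 27.3, 0 and 2.09 (edgeR 3.02, adjusted p = 0.00492), where only JL1024 gives an order.

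Of 26 tested HNRNP and SRSF splicing factor genes, 4 were higher in G3BP by edgeR and none in NLS (HNRNPA1, HNRNPH1, HNRNPK and HNRNPU; median 1.16), or 3 without HNRNPH1, whose call depended on NLS 1 and 2 being separate. HNRNPK had 67.8, 214.5, 68.8 and 41.3 CPM in G3BP 3 to 6 and 14.8, 13.7, 5.67 and 16.7 CPM in NLS 1 to 4 (edgeR 2.35, adjusted p = 0.0056), without overlap. Of 24 stress granule protein genes, 3 were higher in G3BP and none in NLS (DDX3X, IGF2BP1 and NUFIP2; median 1.40), and NUFIP2 was not called with NLS 1 and 2 counted once (adjusted p = 0.0853). IGF2BP1, an mRNA-binding oncofetal protein gene, had 0, 0, 41.9 and 44.5 CPM in G3BP 3 to 6 and 29.6, 0, 1.89 and 4.19 CPM in NLS 1 to 4, where again only JL1024 gives an order. Of 16 translation factor genes EIF2S3 and EIF4E were higher in G3BP and EEF2 and EIF4A2 in NLS (median 0.78). All 47 tags of EEF2 and 67 of the 71 tags of EIF4A2 lay in snoRNA-class peaks. EIF2S3, a subunit gene of initiation factor eIF2, had 67.8, 0, 126 and 66.7 CPM in G3BP 3 to 6 and 9.86, 6.83, 20.8 and 12.6 CPM in NLS 1 to 4 (edgeR 2.46, adjusted p = 0.0018). No member of any list was called higher in G3BP with TMM factors.

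Of 17 tested cytosolic ribosomal protein genes edgeR called 9 higher in NLS and 1 in G3BP (median -3.03). Those higher in NLS included RPL13A, RPL23A, RPL3, RPL4, RPL7A, RPS12 and RPS3, and 9 genes of the list were also called higher in NLS with TMM factors. RPL23A had 23.9 and 1.06 CPM in G3BP 5 and 6 and 104 and 73.3 CPM in NLS 3 and 4 (edgeR -3.32, adjusted p = 0.000131). Of 5 small nuclear, 7S and RNase RNAs, RMRP and RNU4-1 were higher in NLS (median -2.25). Of 4 mitochondrially encoded genes MT-RNR1 and MT-RNR2, the mitochondrial ribosomal RNAs, were higher in NLS (median -1.98). MT-RNR2 had 67.8, 643.5, 102 and 60.4 CPM in G3BP 3 to 6 and 78.8, 212, 471 and 394 CPM in NLS 1 to 4 (edgeR -1.92, adjusted p = 0.0294; 0.0837 with NLS 1 and 2 counted once), so the lines overlapped in JL0388. Of 9 hepatocyte plasma protein genes none was called (median -0.60). AFP, the fetal plasma protein, had 407, 429, 98.7 and 91.1 CPM against 177, 123, 69.98 and 62.8 (edgeR 0.80, adjusted p = 0.307).

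Counting gene regions by annotation class gave the same split. edgeR called 287 of 4777 regions (6.01%), 207 higher in G3BP (4.33%) and 80 higher in NLS (1.67%), and limma 2 (0.0419%), the 3'UTRs of ACTB and SPTBN1. Of 1159 3'UTR regions 166 were higher in G3BP (14.3%) and 2 in NLS, with a median of 1.52 (log2). Of 2667 intron regions 30 were higher in G3BP (1.12%) and 5 in NLS (median 0.74). Of 563 non-coding RNA regions 5 were higher in G3BP and 44 in NLS (7.82%), and of 34 snoRNA regions none and 20 (58.8%; median -3.35). With TMM factors edgeR called 3 regions higher in G3BP (0.0628%), all 3'UTRs, and 71 higher in NLS (1.49%), of which 21 were snoRNA and 40 non-coding RNA regions. The snoRNA regions of GNL3 and TNPO2 among the 20, and of AP1G1 with TMM factors, had no tag in any G3BP library. They entered the tests only through the NLS libraries, so their calls are no result. The same holds for SNORD52 among the 44 and, through the G3BP libraries, for GRPEL2 among the 166.

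Copies of small RNA families were among the 87 genes higher in NLS (2.02% of all tested genes). All 17 tested genes annotated as 5S rRNA copies were higher in NLS (edgeR median -3.14). Their summed signal was 271, 0, 470 and 258 CPM in G3BP 3 to 6 and 59.1, 219, 3737 and 2626 CPM in NLS 1 to 4, so the excess lay in NLS 3 and 4. The NLS input of JL1024 had 4361 CPM and the G3BP input 400 CPM, and the inputs of JL0388 had 660 and 512. Of 18 RNU1 and RNVU1 genes 6 were higher in NLS, of 12 RNU6 genes and copies 2, and of 7 SNORD genes other than SNORD3 5. None of these was higher in G3BP. The 5 SNORD genes include SNORD52, which entered the tests only through the NLS libraries, so its call adds nothing to that count. The RNU1 and RNVU1 genes summed to 339 and 643.5 CPM in G3BP 3 and 4 against 217 and 465 in NLS 1 and 2, and to 5.98 and 20.1 against 240.2 and 188 in JL1024, so the libraries overlapped in JL0388. Members of a family are near-identical, so their calls are not separate observations.

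Single peaks of 20 bases were sparser. limma called 0 of 1904 tested peaks (0.0%), with 261 at an unadjusted p under 0.05, whereas edgeR called 162 higher in G3BP (8.51%) and 170 higher in NLS (8.93%). That split moved with the scale, to 111 (5.83%) and 272 (14.3%) with tags in peaks as library size and to 13 (0.683%) and 133 (6.99%) with TMM factors. By class, edgeR with library totals called 116 of 559 3'UTR peaks higher in G3BP (20.8%), 110 of 459 non-coding RNA peaks higher in NLS (24.0%) and 23 of 36 snoRNA peaks higher in NLS (63.9%). With TMM factors these were 12, 85 and 20 peaks. Coordinates follow GRCh38.p14, the build in the submitters' processing notes, and no source says if the first base of a chromosome is 0 or 1. The 4 peaks named on the G3BP side all lay in 3'UTRs: GPC3 at chrX:133536006-133536026 (minus strand), SPTBN1 at chr2:54669256-54669276 (plus), HNRNPH1 at chr5:179614327-179614347 (minus) and SCD at chr10:100364131-100364151 (plus). The GPC3 peak, in the gene of a cell-surface proteoglycan of liver tumours, had 203, 429, 68.8 and 37.1 CPM in G3BP 3 to 6 and 19.7, 41.0, 3.78 and 4.19 CPM in NLS 1 to 4. limma gave 3.17 (adjusted p = 0.207) and edgeR 3.41 (adjusted p = 0.000809). In JL1024 alone edgeR kept the call of HNRNPH1 but not those of GPC3 (adjusted p = 0.175), SPTBN1 (0.338) and SCD (0.0526). With TMM factors none of the 4 peaks passed, with adjusted p of 0.163 for GPC3, 0.343 for SPTBN1, 0.108 for HNRNPH1 and 0.409 for SCD. The NLS side had snoRNA peaks in SNORD3A at chr17:19188196-19188216 (plus) and SNORD3C at chr17:19190039-19190059 (minus). It also had peaks classed as non-coding RNA in SNORD52 at chr6:31837100-31837120 (plus), which was tested only through the NLS libraries, and in RNU1-28P at chr14:34556355-34556375 (minus), and both lost their edgeR call in JL1024 alone (adjusted p = 0.148 and 0.377).

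The genes called by edgeR were then summed in the other mock libraries, as a description. The 237 genes higher in G3BP took 15.5%, 13.7%, 12.0% and 9.85% of tags in peaks in G3BP 3 to 6 and 3.27%, 3.10%, 2.34% and 3.06% in NLS 1 to 4, the contrast that chose them. The G3BP and NLS inputs of both sets lay at 4.22% to 5.03%, the NES inputs at 5.29% and 6.24%, and the G3BP inputs of JL0361 at 6.71% and 6.83%. The nuclear fractions lay at 4.61% to 4.84% and the cytoplasmic fractions at 11.6% to 13.7%. The NES libraries had 9.90% and 9.33% in JL0388 but 3.23% and 5.30% in JL1024, and the G3BP libraries of JL0361 had 5.59% (of 519 tags) and 11.4%. In JL1024 the G3BP enriched mean was above the G3BP input in 206 of the 237 genes (86.9%), which is near the 3747 of all 4303 tested genes (87.1%). In JL0388 it was so in 154 of the 237 (65.0%), against 866 of all tested genes (20.1%). The 237 genes were called on these enriched libraries, so a higher share among them restates the choice. The shares also depend on depth, since a gene without a tag cannot be the higher. G3BP 3 and 4 held 1831 and 679 tags in peaks against 143744 in their input. In JL1024 the G3BP input held 1353 against 30355 and 86419 in G3BP 5 and 6.

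The 87 genes higher in NLS followed set JL1024. They took 1.37%, 1.03%, 2.32% and 0.852% of tags in peaks in G3BP 3 to 6 and 0.596%, 1.31%, 20.4% and 16.8% in NLS 1 to 4. Within JL0388 both lines were low, at a summed 1598 CPM in G3BP and 1411 CPM in NLS. In JL1024 the NLS input was at 21.3%, the G3BP input at 8.20% and the NES libraries at 23.2% and 9.23%, while the fractions lay at 0.535% to 1.42%. In JL1024 the NLS enriched mean was below the NLS input in 81 of the 87 genes (93.1%), against 70.2% of all tested genes. The G3BP input was below the NLS input in 84 (96.6%), against 86.1% of all tested genes. That G3BP input held 1353 tags in peaks against 234432 in the NLS input, and a gene without a tag in it counted as below. In JL0388 the G3BP input was below the NLS input in 38 of the 87 genes (43.7%), against 52.4% of all tested genes. The part of the JL1024 input difference in the calls was not tested.

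**Figure D4:**
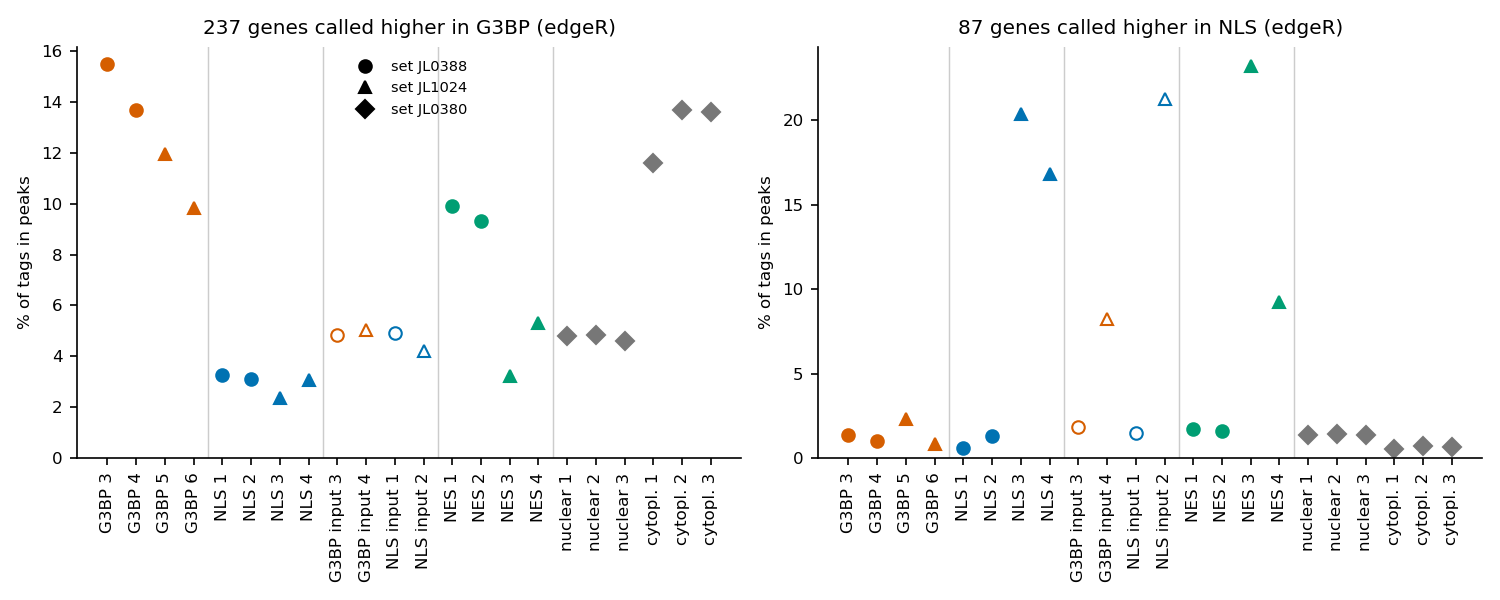
Percentage of tags in peaks (y axis) held by the 237 genes called higher in G3BP and the 87 called higher in NLS by edgeR, one point per mock library. The 237 genes are at 9.85% to 15.5% in G3BP 3 to 6, at 11.6% to 13.7% in the cytoplasmic fractions and at 4.22% to 5.03% in the G3BP and NLS inputs of JL0388 and JL1024, and the 87 genes are high in NLS 3 and 4, the NLS input of JL1024 (21.3%) and the NES libraries of that set.

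A model with line and capture tested whether enriched minus input differed between the lines. limma called 0 of 7819 genes (0%), with 54 at an unadjusted p under 0.05. edgeR called 106 (1.36%), 78 with a larger value in G3BP (0.998%) and 28 with a larger value in NLS (0.358%), with a median of 1.04 (log2). ACTB (2.89, adjusted p = 0.0253), CTNNB1 (3.16, adjusted p = 0.0124) and SCD (2.63, adjusted p = 0.0485) were among the former. SNORD3A (-3.95, adjusted p = 0.00253), RPL7A (-3.70, adjusted p = 0.0156) and EIF4A2 (-4.95, adjusted p = 0.00498) were among the latter. The snoRNA hosts SNHG1 (-2.49, adjusted p = 0.128) and GAS5 (-2.41, adjusted p = 0.128) did not pass, nor did SPTBN1 (1.95, adjusted p = 0.142), HNRNPU (2.27, adjusted p = 0.0868) or RPS12 (-3.17, adjusted p = 0.0673). Each line had 1 input library per set, and that of G3BP in JL1024 had 44.5 CPM per tag.

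The nuclear and cytoplasmic fractions of WT cells, which share no library with the comparison, gave a reference order of the genes. limma called 2022 of 11672 genes higher in the cytoplasmic fraction (17.3%) and 1581 higher in the nuclear fraction (13.5%). Of the cytoplasmic genes 942 were tested between G3BP and NLS, and 170 of them (18.0%) were higher in G3BP and 10 (1.06%) in NLS, with a median of 1.47 (log2, edgeR). Of 1225 nuclear genes 23 (1.88%) were higher in G3BP and 46 (3.76%) in NLS, with a median of 0.62. Of 2136 genes called in neither fraction 44 (2.06%) and 31 (1.45%) were, with a median of 0.76. The 2 differences correlated weakly across 4286 genes (Spearman's rho 0.29, and 0.21 in JL1024 alone), where genes are not independent replicates.

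**Figure D5:**
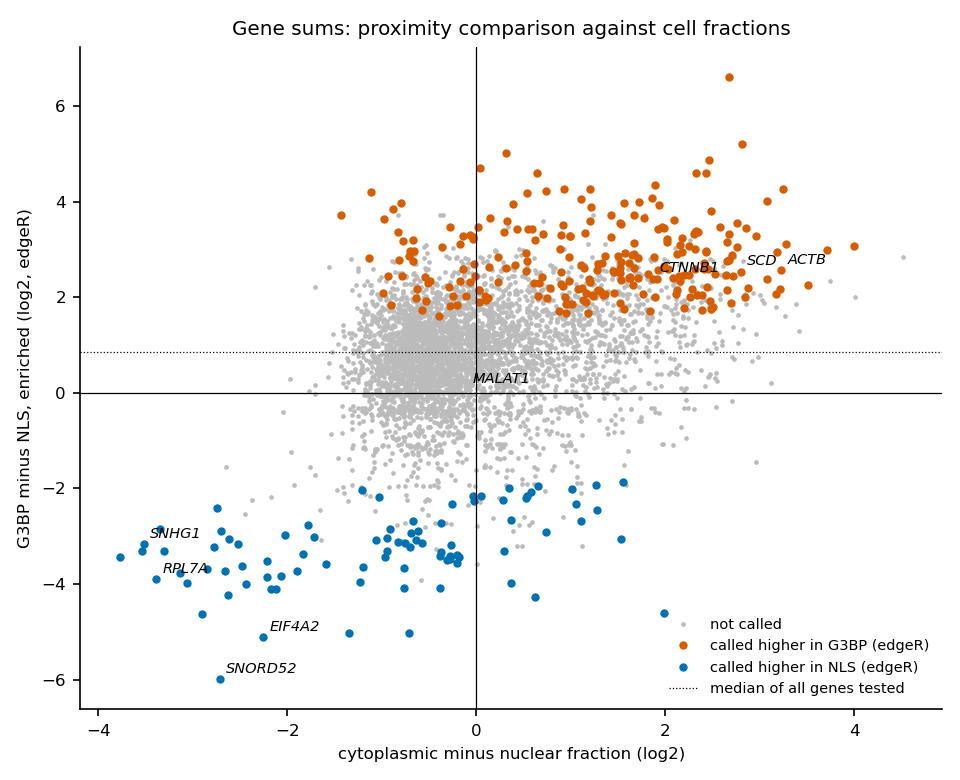
G3BP minus NLS difference by edgeR (log2, y axis) against the cytoplasmic minus nuclear fraction difference by limma (log2, x axis), one point per gene, with the median over all tested genes (0.85) as a dotted line. Genes called cytoplasmic centre on 1.47 and genes called nuclear on 0.62, with wide overlap.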

How the data were processed

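The deposited table gives a signal for every peak in each library, made by the authors by dividing a peak's tags by a library total. That unit was inferred from the values, which are whole multiples of 1 step per column (100% of values within 0.02 tags). Bowtie2, SAMtools, bedtools, HOMER and GRCh38.p14 are named, without roles, per the submitters' processing notes; peak calling, treatment of duplicates and of multiply mapped reads are not given in the sources used here. Of 395471 lines 8257 repeats were dropped, leaving 387214 peaks, of which 84358 have no gene name; gene sums and region sums add the peaks of 1 gene, or of 1 gene and annotation class. Groups and sets come from sample titles and descriptions.

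Peaks, genes and regions with a tag in at least 4 of 8 libraries were tested with limma (version 3.58.1, R 4.3.3; lmFit, eBayes with trend) on log2(CPM + 2.28), the pseudocount being the median, over 58 libraries, of the value of 1 tag, with the library set as covariate and Benjamini-Hochberg adjustment at 0.05. A fold on this scale understates the change of low features. The alternative, edgeR's quasi-likelihood test (4.0.16) on whole tags, used library totals, TMM factors or tags in peaks as library size; DESeq2 (1.42.0), other filters and pseudocounts, single sets and left-out libraries were also run. Both methods were also run on simulated data, with an outcome that is not reported here. Class shares were compared by two-sided exact permutation tests with scipy 1.17.1 (Python 3.11.15, pandas 2.3.3, numpy 2.4.6), and figures drawn with matplotlib 3.10.9. Wilson intervals (95%) and the limit of 3 tags at a count of 0 cover counting error only.

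Named genes are the called genes without overlap in either set with the largest differences, up to 10 in each direction (a 0 in G3BP 3 or 4 counted as lower, whatever its depth), filled by the smallest unadjusted p; 4 peaks in each direction by the same rule; the 3 most tagged members of each list; and ELAVL1, G3BP1, MALAT1, NEAT1 and ACTB. Other list members called by edgeR were named after their values were seen, and some of them are not reported here. The comparison and the 11 gene lists were chosen with earlier results of these data known. The lists are nuclear, cytoplasmic and snoRNA-host lncRNAs, small nuclear and 7S RNAs, mitochondrial genes, stress granule, ribosomal, translation, splicing and plasma protein genes, and AU-rich or reported HuR targets.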

Additional observations from a re-analysis of the deposited data

Results flagged for a closer look

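In the 4 G3BP libraries, 11 of 66 groups of values tested had 1 library far from the others, with gene sums and peaks taken on the log2 scale. A group at 0 in all libraries but 1 is flagged whatever the remaining value. This held for EIF4A2, RNU1-28P as gene and peak, RMRP, RNU4-2 and RPL13A. No rate by chance can therefore be set beside the 11. The distant libraries were at 214.5 CPM for ACTB, 643.5 CPM for HNRNPU, 29.92 CPM for RPL7A, 2.118 CPM for EIF4A2, 2.118 CPM for RNU1-28P as a gene and also as a peak, and 1.059 CPM for RMRP. They were at 3.177 CPM for RNU4-2, 29.92 CPM for RPS12, 26.93 CPM for RPL13A and 0 CPM for EIF2S3. In G3BP 4, the source of the ACTB and HNRNPU values, 1 tag is worth 214.5 CPM.

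The intron share differed between G3BP and NLS by -18.1 points in JL0388 and 11.0 in JL1024, and the share of the class named Other by -0.698 and 1.36 points, with every library on the same side within its set. These differences between the sets were not tested.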

How the results depend on the processing

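The 3'UTR share stayed above 0 and the non-coding RNA share below 0 in all 16 alternatives each. Of 160 alternatives for class shares 152 kept their direction and 8 did not. The intron difference became 11.0 points in JL1024 alone and 0.766 with NLS 1 and 2 counted once, and ranged from -8.34 to 0.926 (0.605 without NLS 2) when 1 library was left out. The class named Other became -0.698 in JL0388 alone and -0.551 as a share of peaks with a tag, and ranged from -0.268 (without G3BP 6; -0.0778 without G3BP 5) to 0.858 without 1 library.

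Counts of calls moved most. For peaks limma's 0 became 8 with a tag in 2 libraries, 332 with edgeR, 146 with TMM, 122 with DESeq2 and 3215 in JL0388 alone, and 0 to 29 without 1 library (29 without G3BP 4). For genes limma's 3 became 1 with a 4 times smaller pseudocount or a tag in 2 libraries, 324 with edgeR, 104 with TMM, 70 with DESeq2, 0 with tags in peaks, median centring, no set covariate or JL1024 alone, and 2446 in JL0388 alone, and 0 to 16 without 1 library (0 without G3BP 5, 16 without G3BP 3). For regions limma's 2 became 0 with the smaller pseudocount, tags in peaks or centring, 1 with NLS 1 and 2 counted once, 287 with edgeR and 74 with TMM, and 0 to 16 without 1 library. Line by capture went from 0 to 106 with edgeR and 0 to 1 without 1 library. The JL0388 counts rest on G3BP libraries where most features are at 0.

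edgeR's 332 peaks became 146 with TMM, 3 in JL0388 alone and 53 in JL1024 alone; its 324 genes became 104 with TMM and 6 in JL0388 alone, and 92 (without NLS 3) to 560 (without G3BP 3); its 287 regions became 74 with TMM. G3BP1, -0.81 in limma and uncalled, was called at 1.94 by edgeR in JL1024 alone and at 1.82 without G3BP 3.

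With the replicate block, limma called 1 gene and 0 regions, and edgeR 136 genes. The numbers share no more than a name: deviations of same-numbered libraries correlated at 0.0519 and 0.0383 for peaks and 0.0074 and 0.0084 for genes in JL0388 and JL1024. Shares cannot pass a paired sign-flip test (smallest p 0.125).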
